A study of Rattus norvegicus with 12 samples.

Results

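The genes described here encode proteins that recognise, package or cut pre-messenger RNA: the SR proteins (Srsf genes), the hnRNP proteins (Hnrnp genes), the protein subunits of the spliceosomal snRNPs (Snrp genes) and the subunits of the SF3a and SF3b complexes (Sf3a and Sf3b genes). They were taken by symbol, as every gene whose name begins with Srsf, Sfrs, Hnrnp, Snrp, Sf3a or Sf3b and that had a probe set annotated to it alone. This gave 44 genes of the 14497 with such a probe set: 11 SR, 17 hnRNP, 8 Snrp and 8 Sf3a or Sf3b genes. The rule reads gene names and no measured value. Where a gene had several probe sets, the one with the highest mean over the 12 arrays stood for it. All 44 genes lay above the filter on low values (a mean log2 level over 4.78), and they lie on 18 chromosomes.

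RNA was measured on Affymetrix whole-transcript rat arrays, in cultured ventricular heart muscle cells of newborn Wistar rats. The 4 groups had 3 arrays each: cultures given adenovirus carrying mef2Cγ+ (γ+ cultures), adenovirus carrying mef2Cγ- (γ- cultures) or adenovirus carrying mef2Cγ+23/24 (23/24 cultures), and untreated control cultures. MEF2C is a transcription factor that binds muscle promoters. Alternative splicing of its own transcript keeps or skips a stretch called γ, which is known to repress transcription. The labels do not define 23/24 and state neither virus dose nor time after infection. All cells were plated for 44 h in medium with serum and then kept without serum for 24 h. The controls received no empty virus, and an effect of infection alone is therefore part of every difference from control. Neither Mef2c nor the transgenes were analysed here, since no probe set carried that symbol. The labels call the arrays of a group biological replicates without saying whether they were separate isolations, so p-values measure the spread between these samples.

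The spliceosome is assembled anew on each intron. The U1 snRNP marks the start of the intron and the U2 snRNP its branch site, where SF3a and SF3b hold U2 to the RNA. Most spliceosomal snRNPs, U1 and U2 among them, carry a ring of Sm proteins, made from Snrpb, Snrpd, Snrpe, Snrpf and Snrpg genes, around their small nuclear RNA, while the U6 snRNP carries LSm proteins in its place. SR proteins bind exons and draw the spliceosome to nearby splice sites, while hnRNP proteins coat the transcript and often have the opposite effect on a splice site. In heart muscle, splicing of titin, troponin T and calcium-handling transcripts changes between fetal and adult life, and loss of Srsf1, Srsf2 or Hnrnpu from the mouse heart leads to cardiomyopathy.

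The promoters below belong to the genes on which the results turn. Srsf2 and Srsf7 were among the genes furthest above control in γ+ cultures, and Srsf3 and Srsf6 were the genes called lower in γ- cultures. Snrpb and Snrpn are near-duplicate Sm genes whose probe sets moved in opposite directions in γ+ cultures against control. Each window runs from 250 bases before to 50 bases after the annotated start of the RefSeq gene in assembly GRCr8, printed along the gene's own strand, and capitals mark the motifs that were searched.
Srsf2 promoter, chr10:102554092-102554391 (- strand): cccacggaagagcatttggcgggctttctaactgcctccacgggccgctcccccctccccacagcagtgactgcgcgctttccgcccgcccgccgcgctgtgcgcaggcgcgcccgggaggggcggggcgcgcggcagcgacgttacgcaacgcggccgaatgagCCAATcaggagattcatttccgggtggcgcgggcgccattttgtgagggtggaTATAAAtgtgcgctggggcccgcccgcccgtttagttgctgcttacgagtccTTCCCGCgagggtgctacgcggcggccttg
Srsf7 promoter, chr6:20563802-20564101 (+ strand): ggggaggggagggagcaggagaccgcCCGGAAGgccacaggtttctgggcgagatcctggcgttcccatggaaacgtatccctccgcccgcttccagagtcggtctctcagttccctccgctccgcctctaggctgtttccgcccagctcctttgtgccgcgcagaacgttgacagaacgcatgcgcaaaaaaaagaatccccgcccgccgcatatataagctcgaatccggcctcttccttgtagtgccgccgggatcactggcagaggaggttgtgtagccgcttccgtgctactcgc
Srsf3 promoter, chr20:7093335-7093634 (+ strand): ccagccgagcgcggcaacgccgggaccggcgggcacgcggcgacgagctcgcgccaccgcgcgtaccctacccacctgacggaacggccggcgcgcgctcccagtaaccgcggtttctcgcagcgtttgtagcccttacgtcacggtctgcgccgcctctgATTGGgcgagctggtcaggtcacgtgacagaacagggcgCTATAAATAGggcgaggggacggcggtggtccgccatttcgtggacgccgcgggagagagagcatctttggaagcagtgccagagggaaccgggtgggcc
Srsf6 promoter, chr3:172008822-172009121 (+ strand): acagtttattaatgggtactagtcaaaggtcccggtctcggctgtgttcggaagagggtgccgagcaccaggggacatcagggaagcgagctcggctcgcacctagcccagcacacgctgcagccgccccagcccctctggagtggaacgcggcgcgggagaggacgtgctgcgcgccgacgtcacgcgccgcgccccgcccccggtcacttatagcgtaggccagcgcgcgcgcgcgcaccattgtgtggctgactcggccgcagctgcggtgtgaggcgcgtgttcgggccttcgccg
Snrpb promoter, chr3:137832430-137832729 (- strand): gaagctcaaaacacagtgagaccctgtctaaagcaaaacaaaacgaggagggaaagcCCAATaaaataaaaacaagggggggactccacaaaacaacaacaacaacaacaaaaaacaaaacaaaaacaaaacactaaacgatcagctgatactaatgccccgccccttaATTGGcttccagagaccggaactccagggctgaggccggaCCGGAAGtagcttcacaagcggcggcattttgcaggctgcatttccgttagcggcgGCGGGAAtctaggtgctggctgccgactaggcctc
Snrpn promoter, chr1:120338870-120339169 (- strand): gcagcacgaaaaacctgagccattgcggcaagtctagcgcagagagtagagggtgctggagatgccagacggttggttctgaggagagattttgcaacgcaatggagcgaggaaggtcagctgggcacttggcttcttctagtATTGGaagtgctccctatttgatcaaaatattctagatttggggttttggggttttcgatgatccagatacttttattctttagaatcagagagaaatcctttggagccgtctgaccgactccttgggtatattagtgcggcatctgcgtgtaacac

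The motifs were searched on both strands as plain letters: the CCAAT box (CCAAT), the core of ETS factor sites (CCGGAAG), the core of E2F sites (TTCCCGC or TTGGCGC), a YY1 core (AGATGGC), the TATA box (TATAAA) and the MEF2 site by its consensus, which can overlap a TATA box. A promoter was in the table for 43 of the 44 genes, with Sf3b2 as the exception. A CCAAT box was in 58.1% of the 43, against 37.9% of the promoters of 8309 tested genes and 37.7% of all 27457 promoters in the table. The hnRNP genes held it most often, in 15 of 17 promoters (88.2%), and the Sf3a and Sf3b genes least often, in 1 of 7. An E2F core was in 32.6% of the splicing gene promoters, against 12% for tested genes and 6.67% for all promoters, and an ETS core in 30.2%, against 17.5% for tested genes and 9.22% for all promoters. A TATA box was in 14% of the splicing gene promoters, against 6.93% for tested genes and 14.3% for all promoters. The YY1 core was in 2.33%, against 8.04% for tested genes and 6.71% for all promoters. The median GC content of the 43 windows was 60%, against 61.0% for tested genes and 52.3% for all promoters. A MEF2 match occurred in 3 of the 43 windows (6.98%), those of Srsf3, Sf3b3 and Sf3b4, against 1.41% of tested genes and 3.37% of all promoters. In Srsf3 the MEF2 match begins at base 201 of the window and overlaps the TATA box at base 202, so the same letters were counted for both motifs. Srsf6 held none of these letter strings in its window. These shares describe letters in a window, and no binding was measured.

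One library stood apart and is named before the results. Replicate 2 of the γ+ group was the farthest of its 3 arrays from the others in 37 of the 44 genes, the lowest in 28 and the highest in 13, and its level lay a median of 0.16 below the mean of the other γ+ arrays on the log2 scale (median -0.16). Over all genes tested the median level was also lower in that array, at 7.19, against 7.27 and 7.26 in γ+ replicates 1 and 3. The median SD between replicates over the 44 genes was 0.12 in the γ+ cultures and 0.06 in each other group. The calls that changed without this array are given beside each comparison with the γ+ cultures. All groups shared a common estimate of the spread, so this array also entered the comparisons that leave out the γ+ cultures. For those, the shares of all genes called without it are given, and the splicing genes were not counted anew.

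A second point concerns how the arrays were put on a common scale. Exactly equal values between 2 arrays occurred within the set of 23/24 and control arrays, within the γ+ arrays and within the γ- arrays (27 to 111 values in each of 21 pairs), and in 0 of 45 pairs across those sets. This pattern points to 3 normalization runs, though the labels name no run and the sets were read from these same values. On that reading, run and group cannot be told apart in any comparison but that of the 23/24 cultures with control. All values below are log2 levels as deposited, all fold changes are differences of such levels, and a gene is called where limma's adjusted p over all 10025 genes tested lies under 0.05.

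The F test asked whether a gene differed between any of the 4 groups. It called 37 of the 44 splicing genes (84.1%), against 70.3% of all genes tested. By family these were 8 of 11 SR genes, 15 of 17 hnRNP genes, all 8 Snrp genes and 6 of 8 Sf3a and Sf3b genes. The count depended on the fit: 36 without γ+ replicate 1, 40 without γ+ replicate 2, 42 after median centring and 43 with array weights. For those fits the share of all genes called by the F test was not taken. The heat map of single arrays shows that in most of these genes the γ+ arrays stand apart from the other 9.

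**Figure D1:**
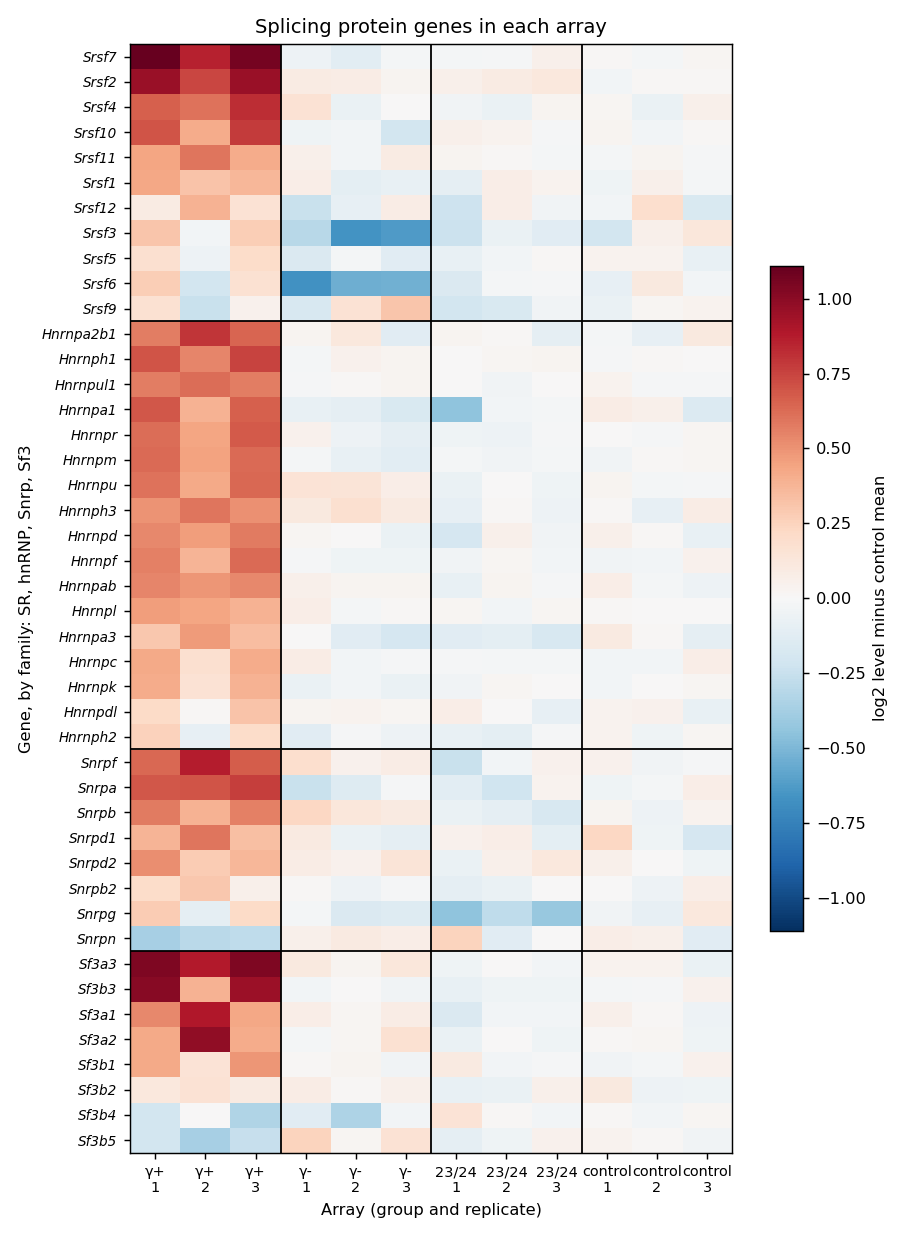
Each row is 1 of the 44 splicing genes, grouped by family, and each column 1 of the 12 arrays. Colour gives the array's log2 level minus the control mean of that gene (red higher, blue lower, white equal). The γ+ columns are red for most genes and blue in all 3 arrays for Snrpn and Sf3b5, and the γ- columns are blue for Srsf3 and Srsf6.

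The γ+ cultures were first compared with untreated control. Most splicing genes were higher in the γ+ cultures: 33 of 44 rose, 2 fell and 9 were not called. Of all genes tested, 64.9% were called, 26.2% higher and 38.7% lower, so the whole table leaned downwards while the splicing genes leaned upwards. The median log2 fold change was 0.49 over the 44 genes and -0.07 over all genes. Their fold changes ran from -0.32 to 1.0, and 22 genes differed by more than 0.5 in either direction. The 3 arrays of each group did not overlap in 33 of the 44 genes (75.0%), against 66.6% of all genes. Among 2255 genes with mean levels from 8.05 to 9.63, where the middle of the splicing genes lies (a range chosen after the values were seen), 29.5% were higher and 43.3% lower, with a median of -0.08. The split between higher and lower calls over all genes depended on scaling: 40.4% of calls were higher as deposited and 51.2% after centring each array on its median, while the splicing genes had 38 higher and 1 lower after that centring, and 36 higher and 2 lower after quantile normalization. Without γ+ replicate 2, 37 genes were higher and 3 lower, with 28.4% of all genes higher and 38.2% lower.

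**Figure D2:**
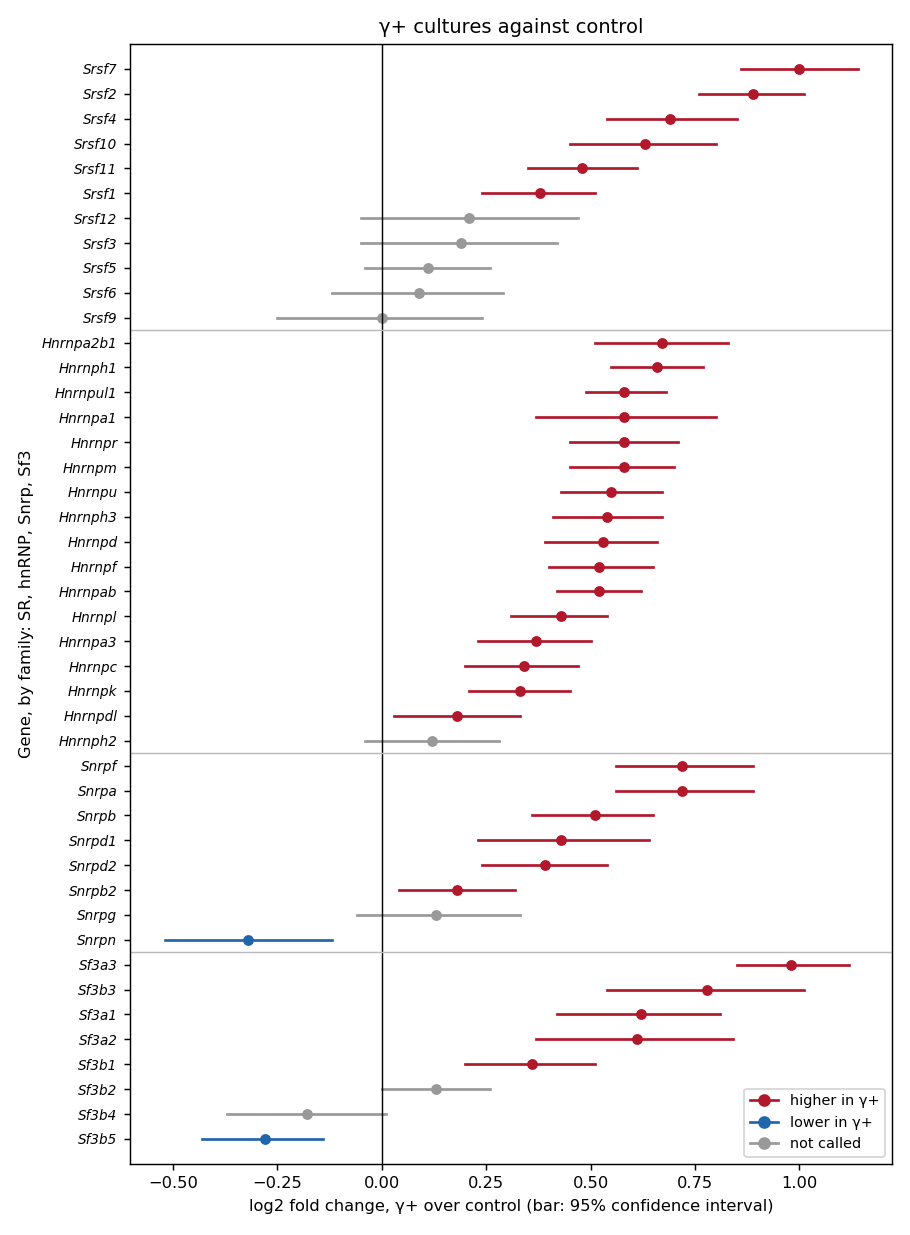
Points give the log2 fold change of each splicing gene, γ+ over control (3 arrays each), and bars its 95% confidence interval from limma, with genes ordered within family. Red genes were called higher, blue genes lower and grey genes not called. All 17 hnRNP genes lie right of 0, Srsf7 lies furthest right at 1.0, and Snrpn lies furthest left at -0.32.

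Among the SR genes, 6 of 11 rose in the γ+ cultures, 0 fell and 5 were not called, with a median log2 fold change of 0.38. Srsf7, an SR protein with a zinc knuckle that also serves in mRNA export, had log2 levels of 9.46, 9.20 and 9.41 in γ+ cultures, against 8.36, 8.33 and 8.37 in control cultures. All γ+ arrays stood above all control arrays, and the log2 fold change was 1.0 ± 0.07 (SE; limma, adjusted p = 1.2e-09), a 2.00-fold difference. Srsf2, which binds exonic enhancers and marks nuclear speckles, had 10.95, 10.73 and 10.95 in γ+ cultures, against 9.96, 10.00 and 10.00 in control cultures (log2 fold change 0.89 ± 0.06, adjusted p = 1.2e-09). Again the groups were well apart, with γ+ replicate 2 the lowest of its 3 arrays in both genes. Srsf4, a large SR protein with a pair of RNA-binding domains, had 8.51, 8.45 and 8.67 in γ+ cultures, against 7.87, 7.78 and 7.91 in control cultures, a log2 fold change of 0.69 ± 0.07 (adjusted p = 4e-07). Srsf1, the SR protein first found as a splicing factor, had 9.09, 8.98 and 9.03 in γ+ cultures, against 8.61, 8.72 and 8.64 in control cultures. Its log2 fold change was smaller than that of Srsf7 in value, 0.38 ± 0.06 (adjusted p = 8.4e-05). Srsf10, known as a splicing repressor when dephosphorylated, and Srsf11 also rose, with log2 fold changes of 0.63 and 0.48.

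Srsf3, the smallest SR protein and an adaptor for mRNA export, was not among the called SR genes in this comparison. It had 7.49, 7.15 and 7.45 in γ+ cultures, against 6.98, 7.24 and 7.31 in control cultures, so the groups overlapped through γ+ replicate 2 and the higher control arrays (log2 fold change 0.19 ± 0.11, adjusted p = 0.15). Srsf6 had 8.94, 8.47 and 8.84 in γ+ cultures, against 8.58, 8.78 and 8.64 in control cultures, with a log2 fold change of 0.09 ± 0.10 (adjusted p = 0.45). These results rested on that array: without it, limma called Srsf3 at 0.29 (adjusted p = 0.018), Srsf6 at 0.23 (adjusted p = 0.0063) and Srsf5 at 0.19 (adjusted p = 0.0046). Srsf3 was also called after median centring, at 0.28. Srsf9 had a log2 fold change of 0.00 with a 95% interval of -0.25 to 0.24, and Srsf12, at 0.21, had one of -0.05 to 0.47.

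The hnRNP genes moved most evenly: 16 of 17 rose, 0 fell, and the exception, Hnrnph2, stood at 0.12 (adjusted p = 0.18), and at 0.23 without γ+ replicate 2, where it was called (adjusted p = 0.00062). Their median log2 fold change was 0.53 and the highest 0.67. Hnrnpa2b1, which binds nascent RNA and sorts RNAs for transport, had 10.03, 10.25 and 10.11 in γ+ cultures, against 9.44, 9.37 and 9.57 in control cultures. The arrays did not overlap, and the log2 fold change was 0.67 ± 0.07 (adjusted p = 7.4e-07). Hnrnpul1, a relative of Hnrnpu that also takes part in DNA repair and had the lowest F-test p of its family, had 10.24, 10.29 and 10.24 in γ+ cultures, against 9.71, 9.66 and 9.66 in control cultures (log2 fold change 0.58 ± 0.05, adjusted p = 9.8e-09). Hnrnpa1, the best-known antagonist of SR proteins at splice sites, had 12.34, 12.04 and 12.31 in γ+ cultures, against 11.73, 11.71 and 11.50 in control cultures, a log2 fold change of 0.58 ± 0.10 (adjusted p = 9.8e-05). Hnrnpu, a nuclear scaffold protein, had 10.60, 10.42 and 10.64 in γ+ cultures, against 10.03, 9.98 and 9.99 in control cultures. It differed by 0.55 ± 0.06 (adjusted p = 3.5e-07). Hnrnph1, which binds runs of G, stood at 0.66 ± 0.05 and the Hnrnpm, Hnrnpr, Hnrnpd, Hnrnpf, Hnrnph3 and Hnrnpab genes at 0.52 to 0.58. Hnrnpl, which binds CA repeats, Hnrnpc, which binds runs of U, and Hnrnpk, which binds runs of C, rose less in value, with 0.43, 0.34 and 0.33. Hnrnpdl, at 0.18 (adjusted p = 0.038), was the weakest call, with overlapping arrays, and it was lost without γ+ replicate 3, where its log2 fold change was 0.11 (adjusted p = 0.20).

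Of the 44 genes, 5 had several probe sets, all of them hnRNP genes. Hnrnpa1 had 3, with log2 fold changes of 0.58, 0.66 and 0.67, and the pairs of Hnrnpa2b1, Hnrnpf and Hnrnpk also lay on the same side of 0. Hnrnpa3 had 8, of which 2 fell below the filter. Its 3 probe sets with mean levels above 9 gave 0.37, 0.26 and 0.49, all called, while the others gave 0.10, -0.17 and -0.15, none of them called. Its call was lost when all its probe sets were averaged (0.12, adjusted p = 0.20). Abundant hnRNP genes have processed copies elsewhere in the genome, so which copy a probe set reads is uncertain here.

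Among the Snrp genes, 6 of 8 rose, 1 fell and 1 was not called, with a median log2 fold change of 0.41. Snrpa, the U1 snRNP protein that binds the second stem-loop of U1 RNA, had 8.13, 8.14 and 8.21 in γ+ cultures, against 7.39, 7.42 and 7.51 in control cultures (log2 fold change 0.72 ± 0.08, adjusted p = 4.3e-07). Snrpf, the Sm ring protein F, had 9.48, 9.71 and 9.51 in γ+ cultures, against 8.89, 8.80 and 8.83 in control cultures (log2 fold change 0.72 ± 0.08, adjusted p = 4.6e-07). In both genes the lowest γ+ array was above the highest control array. The Sm genes Snrpd1 and Snrpd2 stood at 0.43 and 0.39, while Snrpg, another ring protein, stood at 0.13 (adjusted p = 0.20) and was called without γ+ replicate 2, at 0.25 (adjusted p = 0.0041). Snrpb2, a U2 snRNP protein, was called at 0.18 with overlapping arrays and lost without γ+ replicate 2, at 0.13 (adjusted p = 0.078).

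Snrpb and Snrpn encode near-identical Sm proteins that take the same place in the ring. Snrpb is expressed in all tissues, and Snrpn is imprinted in human and mouse. Snrpb had 8.30, 8.11 and 8.28 in γ+ cultures, against 7.75, 7.66 and 7.76 in control cultures, and rose by 0.51 ± 0.07 (adjusted p = 5.7e-06). Snrpn had 5.75, 5.82 and 5.84 in γ+ cultures, against 6.19, 6.18 and 5.99 in control cultures, a log2 fold change of -0.32 ± 0.09 (adjusted p = 0.0062). The groups did not overlap in either gene, and the directions were opposite. The difference between their fold changes was not tested. Snrpn was read by 1 probe set, with a mean log2 level of 6.07 over all arrays, and whether it reads a copy elsewhere was not examined. A further probe set annotated to both Snurf and Snrpn was not used.

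SF3a and SF3b are the parts of the U2 snRNP that grip the branch site. Of their 8 genes, 5 rose in the γ+ cultures, 1 fell and 2 were not called, and the median log2 fold change was 0.48. All 3 SF3a subunits rose. Sf3a3 had 8.76, 8.60 and 8.76 in γ+ cultures, against 7.76, 7.76 and 7.65 in control cultures (log2 fold change 0.98 ± 0.06, adjusted p = 8.2e-10). Its groups stood far apart relative to the spread of the arrays. Sf3a1 had 8.46, 8.82 and 8.36 in γ+ cultures, against 7.99, 7.94 and 7.87 in control cultures (log2 fold change 0.62 ± 0.09, adjusted p = 1.8e-05). For Sf3a2 the values were 9.17, 9.73 and 9.16 in γ+ cultures, against 8.76, 8.77 and 8.70 in control cultures (log2 fold change 0.61 ± 0.11, adjusted p = 0.00014). In these subunits γ+ replicate 2 was the highest array, and without it the log2 fold changes were 0.48 and 0.42, both still called.

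In SF3b the subunits differed. Sf3b3, a scaffold subunit, had 9.45, 8.83 and 9.39 in γ+ cultures, against 8.42, 8.43 and 8.49 in control cultures, and here γ+ replicate 2 was well below its partners. Its log2 fold change was 0.78 ± 0.11 (adjusted p = 1.1e-05), and 0.97 without that array. Sf3b1, the subunit that closes around the branch site and is often mutated in human myeloid neoplasms, had 10.51, 10.24 and 10.58 in γ+ cultures, against 10.05, 10.07 and 10.14 in control cultures (log2 fold change 0.36 ± 0.07, adjusted p = 0.00039). Sf3b5, the smallest of these subunits, had 8.11, 7.94 and 8.05 in γ+ cultures, against 8.35, 8.32 and 8.27 in control cultures. It fell by 0.28 on the log2 scale (SE 0.07, adjusted p = 0.0019), a call lost after median centring (-0.19, adjusted p = 0.055). Sf3b2 stood at 0.13 (adjusted p = 0.079) and Sf3b4 at -0.18 (adjusted p = 0.083), and Sf3b4 was called without γ+ replicate 2, at -0.27 (adjusted p = 0.0054).

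The promoters with a MEF2 match belonged to genes that differed among themselves in this comparison: the log2 fold change was 0.78 for Sf3b3, 0.19 for Srsf3 and -0.18 for Sf3b4, of which Sf3b3 alone was called. Srsf2 and Srsf7 moved alike in value, and their printed windows shared no searched motif: Srsf2 held a CCAAT box, a TATA box and an E2F core, and Srsf7 an ETS core. The search found exact letters only, and the relation of motifs to fold changes was not tested.

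**Figure D3:**
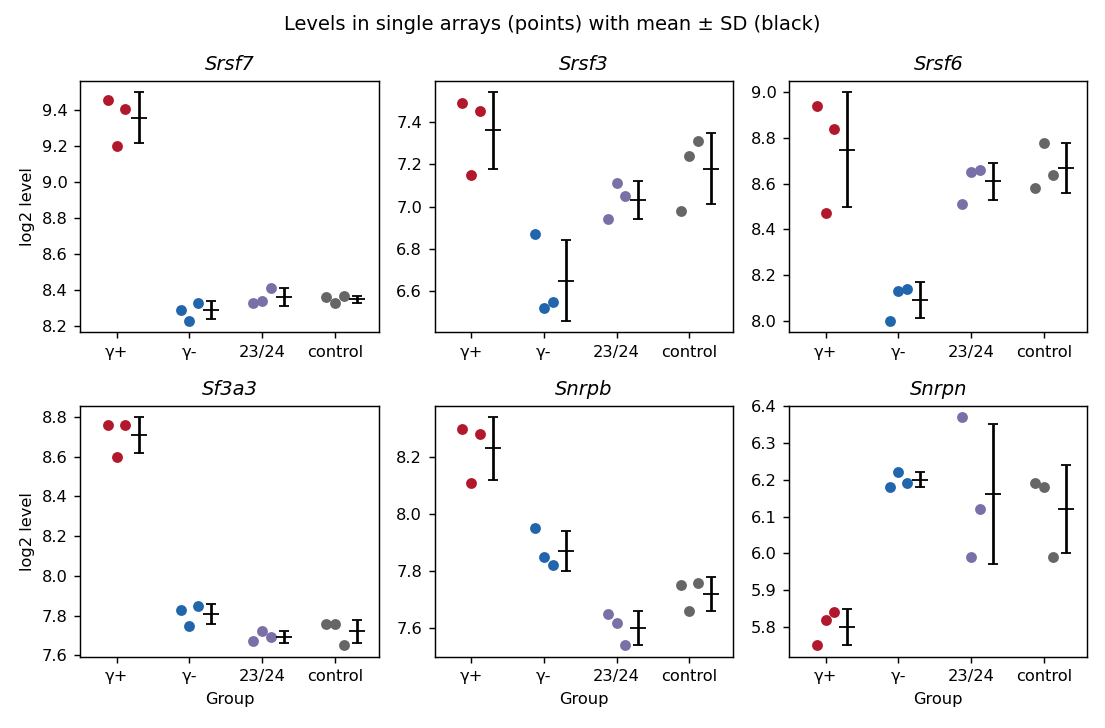
Log2 levels of 6 splicing genes in single arrays (points) with mean and SD (black bars, n = 3), for γ+, γ-, 23/24 and control cultures from left to right; the vertical axes differ between panels and do not start at 0. Srsf7, Sf3a3 and Snrpb are highest and Snrpn lowest in the γ+ arrays, and Srsf3 and Srsf6 are lowest in the γ- arrays.

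Genes that work beside these proteins were described with the same fit, in lists chosen with earlier results of these data known. Of 51 other core spliceosome genes measured, 38 rose in the γ+ cultures and 2 fell, with a median log2 fold change of 0.31. Bcas2, a subunit of the Prp19 complex, averaged 8.63 in γ+ cultures and 7.75 in control cultures, with a log2 fold change of 0.88 ± 0.07 (adjusted p = 8e-09). Snrnp70, the U1 snRNP protein whose gene falls outside the naming rule, stood at 0.66 ± 0.05, and Snu13, which binds U4 RNA, at 0.65 ± 0.06. Of 27 SR-related proteins and SR protein kinases, 23 rose and 0 fell (median 0.37), among them Tra2b at 0.80, Rnps1 at 0.69 and Bclaf1 at 0.68. Of 15 genes of snRNP assembly, 11 rose and 1 fell (median 0.52). Prmt5, which methylates Sm proteins, stood at 0.93 ± 0.05 (adjusted p = 1.2e-10), and Gemin6 and Ddx20, of the SMN complex, at 0.79 and 0.67.

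Of 16 genes of the exon junction complex, nonsense-mediated decay and mRNA export, 13 rose and 1 fell (median 0.49). Alyref, which hands spliced mRNA to the export receptor, averaged 10.66 in γ+ cultures and 9.65 in control cultures (log2 fold change 1.01 ± 0.05, adjusted p = 1e-11). The export receptor Nxf1 stood at 0.57 and the decay factor Upf2 at 0.65. Of 24 further hnRNP-like RNA-binding genes, 20 rose and 2 fell (median 0.39). Ptbp2, a regulator of neuronal and early muscle splicing, stood at 1.04 ± 0.08 (adjusted p = 6.2e-09) and Sfpq, of paraspeckles, at 0.81, whereas Pcbp3, a poly-C-binding protein, averaged 7.85 in γ+ cultures and 8.70 in control cultures (log2 fold change -0.85 ± 0.06, adjusted p = 5.2e-09). Of 12 LSm genes, 8 rose and 0 fell (median 0.24), with Lsm3 at 0.76, Lsm6 at 0.70 and Lsm2 at 0.62. Of 5 minor spliceosome genes, 2 rose and 1 fell (median 0.14): Rnpc3 stood at 0.52, Snrnp48 at 0.34 and Snrnp35 at -0.23. Each list is read beside the 26.2% higher and 38.7% lower of all genes.

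**Figure D4:**
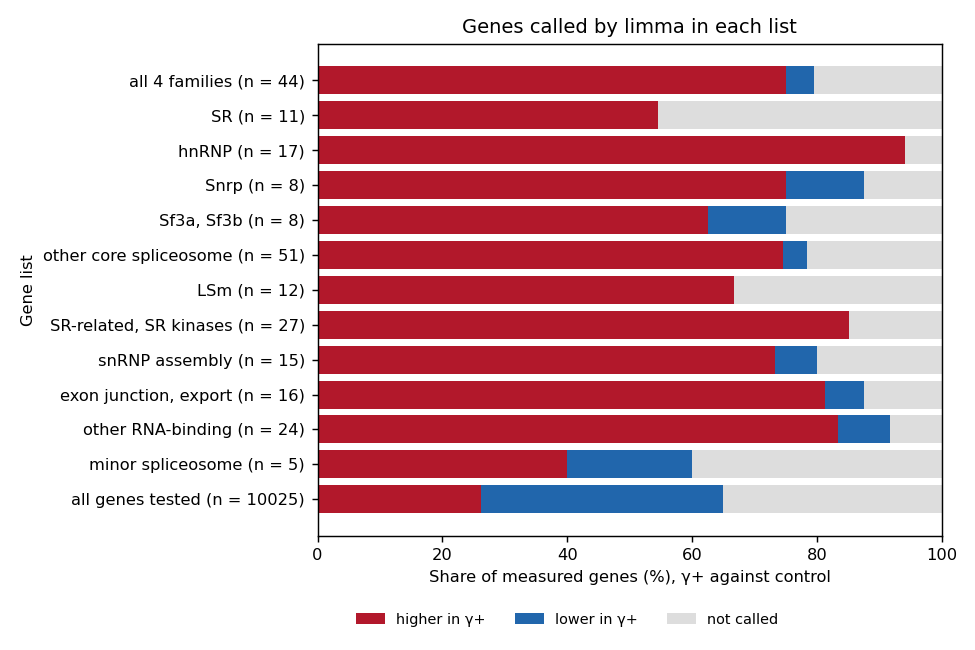
Bars give, for each gene list, the percentage of its measured genes called higher (red), lower (blue) or not called (grey) by limma in γ+ against control cultures, with all genes tested at the bottom. Among the splicing lists the red share runs from 40% for the minor spliceosome to 94.1% for the hnRNP genes, against 26.2% for all genes.

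Other markers moved in the same comparison, and they are given here because they moved with the splicing genes. All 18 measured proliferation markers were higher in the γ+ cultures (median log2 fold change 1.34), with a mean level of 9.32 to 9.51 in the γ+ arrays and 8.12 to 8.15 in the control arrays. All 15 cardiomyocyte markers were lower (median -1.20), with mean levels of 10.42 to 10.55 in γ+ arrays and 11.66 to 11.71 in control arrays, so the labelled cell type's markers were measured in every group. Of the non-muscle lists, all 12 fibroblast markers were lower (7.52 to 7.69 in γ+ arrays, 8.85 to 8.91 in control arrays), as were all 11 endothelial markers (5.81 to 5.93 in γ+ arrays, 6.61 to 6.67 in control arrays). Likewise 7 of 8 smooth muscle markers were lower (8.22 to 8.24 in γ+ arrays, 9.13 to 9.19 in control arrays), and 7 of 9 macrophage or leukocyte markers (5.96 to 6.02 in γ+ arrays, 6.36 to 6.42 in control arrays). In these bulk cultures fewer cells of a type and less RNA per cell cannot be told apart, and the part of these changes in the splicing gene result was not tested.

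The γ- cultures, which received the form without the γ segment, were then compared with control. Of the 44 splicing genes 0 rose and 2 fell, Srsf6 and Srsf3, against 6.94% of all genes called, 3.06% higher and 3.88% lower. The median log2 fold change was 0.00 over the splicing genes and -0.01 over all genes, and arrays did not overlap in 8 of the 44, against 33.4% of all genes. In the fit without γ+ replicate 2, more of all genes were called here, 7.05% higher and 9.56% lower. Srsf6 had 8.0, 8.13 and 8.14 in γ- cultures, against 8.58, 8.78 and 8.64 in control cultures, with no overlap. It fell by 0.57 on the log2 scale (SE 0.10, adjusted p = 0.0033), which is 0.671 times the control level. Srsf3 had 6.87, 6.52 and 6.55 in γ- cultures, against 6.98, 7.24 and 7.31 in control cultures, also without overlap but with γ- replicate 1 close to control replicate 1. It fell by 0.53 (SE 0.11, adjusted p = 0.011), and the call was lost without control replicate 3 (-0.46, adjusted p = 0.053), without γ- replicate 2 (-0.47, adjusted p = 0.059) or without γ- replicate 3 (-0.48, adjusted p = 0.055). Among the 42 other genes, each read by its chosen probe set, the fold changes ran from -0.17 to 0.15. When all single-gene probe sets above the filter were fitted, a further Hnrnpa3 probe set was called lower, at -0.20 (SE 0.05, limma, adjusted p = 0.024). The chosen Hnrnpa3 probe set stood at -0.11 (adjusted p = 0.35) and its others above the filter at -0.87 to -0.08, none of them called. Averaging the probe sets of each gene gave 3 lower. Of the genes that rose furthest in γ+ cultures, Srsf7 had 8.29, 8.23 and 8.33 in γ- cultures, against 8.36, 8.33 and 8.37 in control cultures (log2 fold change -0.07, 95% interval -0.21 to 0.07), and Sf3a3 stood at 0.09 with an interval of -0.05 to 0.22.

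The neighbouring lists were likewise near the background in the γ- cultures. Of the 51 other core spliceosome genes 3 rose, Usp39 at 0.32, Bcas2 at 0.24 and Snrnp70 at 0.21. Upf3a, a factor of nonsense-mediated decay, averaged 7.16 in γ- cultures and 6.69 in control cultures, a log2 fold change of 0.47 ± 0.06 (adjusted p = 0.00083). Taf15 rose by 0.19, Rbm3, a cold-inducible RNA-binding protein, fell by 0.17 and Ppp1r8, a nuclear regulator of protein phosphatase, fell by 0.29. The LSm, minor spliceosome and snRNP assembly lists had 0 calls by limma, with 0 of 12, 2 of 5 and 0 of 15 genes at an unadjusted p under 0.05, a level that 2288 of all 10025 genes reached. Of the markers, 3 of 11 endothelial ones were lower and 1 higher, and 3 of 9 macrophage or leukocyte ones were lower, beside 6.94% of all genes called. Also called were 2 of 15 cardiomyocyte markers, higher, and 1 of 18 proliferation, 1 of 12 fibroblast and 1 of 8 smooth muscle markers, lower. Their part in this comparison was not tested.

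The comparison of the 23/24 cultures with control is the one that lies within a single normalization run, as far as the equal values show. limma called 0 of the 44 splicing genes and 0.00% of all 10025 genes. At an unadjusted p under 0.05 stood 2 of the 44 splicing genes and 899 of all genes. The median log2 fold change of the splicing genes was -0.03, and the values ran from -0.38 to 0.09, with no overlap of arrays in 5 of the 44 genes, against 17.9% of all genes. In the fit without γ+ replicate 2, 0.219% of all genes were called higher and 0.359% lower in this comparison. Snrpg lay lowest, with 7.82, 7.99 and 7.85 in 23/24 cultures, against 8.23, 8.18 and 8.39 in control cultures: the arrays did not overlap, but the adjusted p was 0.22 (log2 fold change -0.38 ± 0.09). It was called with array weights, at -0.30 (adjusted p = 0.015). Next by p came Hnrnpa3, with 9.76, 9.78 and 9.71 in 23/24 cultures, against 9.99, 9.90 and 9.79 in control cultures (log2 fold change -0.15 ± 0.06, adjusted p = 0.53), and Snrpb, with 7.65, 7.62 and 7.54 in 23/24 cultures, against 7.75, 7.66 and 7.76 in control cultures (-0.12 ± 0.07, adjusted p = 0.63). In both genes every 23/24 array was just below the lowest control array, and neither was called. Srsf7, Srsf2 and Sf3a3 stood at 0.01, 0.09 and -0.03, with 95% intervals of -0.13 to 0.14, -0.03 to 0.22 and -0.16 to 0.10.

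The forms were then set against each other, in comparisons that share arrays with those above. Between γ+ and γ- cultures, 38 of the 44 splicing genes were higher in γ+ and 2 lower, with 64.2% of all genes called, 26.7% higher and 37.5% lower. The median log2 fold change was 0.46 over the splicing genes, and the arrays did not overlap in 38 of the 44, against 67.1% of all genes. Among the SR genes 10 of 11 were higher in γ+, the exception being Srsf9 (-0.11, adjusted p = 0.45). Of these, Srsf12 lay close to the filter at 4.78, with a mean log2 level of 4.98 over all arrays. Its call at 0.30 (limma, adjusted p = 0.045) was lost in 5 of 14 alternatives, among them the fit without γ+ replicate 2 (0.21, adjusted p = 0.17). The fits without γ+ replicate 3 and without γ- replicates 1 and 2 (0.33, 0.22 and 0.30) lost it too. Srsf5 was called at 0.21 (adjusted p = 0.017) and lost in 5 of 15, with 0.16 to 0.19 without γ+ replicate 1, γ+ replicate 3, γ- replicate 1 or γ- replicate 3. Srsf3 had 7.49, 7.15 and 7.45 in γ+ cultures, against 6.87, 6.52 and 6.55 in γ- cultures, a log2 fold change of 0.72 ± 0.11 (adjusted p = 2.8e-05), and Srsf6 had 8.94, 8.47 and 8.84, against 8.0, 8.13 and 8.14 in γ- cultures, 0.66 ± 0.10 (adjusted p = 1.8e-05). For both genes every γ+ array was above every γ- array. Srsf7 stood at 1.07 ± 0.07, Sf3a3 at 0.89 ± 0.06, Snrpa at 0.85 and Srsf2 at 0.82 ± 0.06. Lower in γ+ were Sf3b5, at -0.42 ± 0.07, with 8.11, 7.94 and 8.05 in γ+ cultures, against 8.56, 8.33 and 8.47 in γ- cultures, and Snrpn, at -0.40 ± 0.09. In the other families the calls of Hnrnph2 (0.19, lost in 6 of 15 alternatives) and Snrpg (0.23, lost in 5 of 15) were the ones lost in some alternative, and each was lost without γ+ replicate 1 or 3 (Hnrnph2 0.12 and 0.15, Snrpg 0.16 and 0.20), without γ- replicate 3 (0.20 and 0.22), and Hnrnph2 without γ- replicate 1 (0.16) or Snrpg without γ- replicate 2 (0.21). Hnrnpdl, at 0.15 (adjusted p = 0.073), was called without γ+ replicate 2, at 0.24 (adjusted p = 0.001). All 18 proliferation markers were higher in γ+ than in γ- cultures (median 1.29), with mean levels of 9.32 to 9.51 in γ+ arrays and 8.08 to 8.13 in γ- arrays. All 15 cardiomyocyte markers were lower (10.42 to 10.55 in γ+ arrays, 11.76 to 11.78 in γ- arrays), as were all 12 fibroblast markers (7.52 to 7.69 in γ+ arrays, 8.76 to 8.80 in γ- arrays), all 8 smooth muscle and all 11 endothelial markers and 5 of 9 macrophage or leukocyte markers, of which 1 was higher. Their part in this comparison was not tested.

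Between γ+ and 23/24 cultures, 37 of the 44 genes were higher in γ+ and 3 lower, with 65.8% of all genes called, 28.0% higher and 37.9% lower. All 17 hnRNP genes were higher in γ+, of which Hnrnph2 (0.19) was lost in 6 of 15 alternatives and Hnrnpdl (0.18) in 5 of 15. Without γ+ replicate 1 they stood at 0.12 and 0.17, without γ+ replicate 3 at 0.15 and 0.12 and without 23/24 replicate 2 at 0.17 and 0.19, and Hnrnph2 was also lost without 23/24 replicate 1 (0.19) and Hnrnpdl without 23/24 replicate 3 (0.14). Arrays did not overlap in 38 of the 44 genes, against 67.4% of all genes. The median was 0.53 over the splicing genes and -0.07 over all genes. Median centring shifted the whole table here, to an all-gene median of 0.07 with 58.5% of calls higher, against 42.5% as deposited, and the splicing genes then had a median of 0.66, with 40 higher and 1 lower. Sf3a3 had 8.76, 8.60 and 8.76 in γ+ cultures, against 7.67, 7.72 and 7.69 in 23/24 cultures (log2 fold change 1.01 ± 0.06, adjusted p = 5.8e-10). Srsf7 differed by 1.0 ± 0.07, and Snrpb by 0.63 ± 0.07. Snrpg, at 0.13 against control, stood at 0.52 ± 0.09 here (adjusted p = 1e-04). The genes lower in γ+ were Snrpn at -0.36, Sf3b5 at -0.25 and Sf3b4 at -0.23. The Sf3b4 call was lost in 6 of 15 alternatives, with -0.09 after median centring, -0.22 without γ+ replicate 1, -0.15 without γ+ replicate 3, -0.17 without 23/24 replicate 1 and -0.24 without 23/24 replicate 2, and that of Sf3b5 was lost after median centring (-0.11). Among the genes higher in γ+, Sf3b2 (0.16) was lost in 6 of 15 alternatives, without any 1 of γ+ replicates 1, 2 and 3 (0.16, 0.14 and 0.17) or 23/24 replicates 1 and 2 (0.13 and 0.14). Srsf3 (0.33) was lost in 3, without γ+ replicate 1, γ+ replicate 3 or 23/24 replicate 1 (0.27, 0.29 and 0.28). Without γ+ replicate 2, limma also called Srsf5 at 0.22 (adjusted p = 0.0014), Srsf6 at 0.29 (adjusted p = 0.001) and Srsf9 at 0.25 (adjusted p = 0.042). The markers moved here too: all 18 proliferation markers were higher (median 1.31; 9.32 to 9.51 in γ+ arrays, 8.07 to 8.17 in 23/24 arrays), and all 15 cardiomyocyte markers (10.42 to 10.55 in γ+ arrays, 11.65 to 11.74 in 23/24 arrays) and all 12 fibroblast markers (7.52 to 7.69 in γ+ arrays, 8.80 to 8.92 in 23/24 arrays) were lower. So were 7 of 8 smooth muscle, 10 of 11 endothelial and 7 of 9 macrophage or leukocyte markers, and the part of the markers in this comparison was not tested.

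Between γ- and 23/24 cultures, 1 splicing gene was higher in γ- and 2 were lower, with 8.10% of all genes called, 4.16% higher and 3.94% lower. Srsf6 had 8.0, 8.13 and 8.14 in γ- cultures, against 8.51, 8.65 and 8.66 in 23/24 cultures, and fell by 0.52 (SE 0.10, adjusted p = 0.0057). Srsf3 had 6.87, 6.52 and 6.55 in γ- cultures, against 6.94, 7.11 and 7.05 in 23/24 cultures, and fell by 0.39 (SE 0.11, adjusted p = 0.042). Snrpb had 7.95, 7.85 and 7.82 in γ- cultures, against 7.65, 7.62 and 7.54 in 23/24 cultures, and rose by 0.27 (SE 0.07, adjusted p = 0.023). None of these groups overlapped. The Srsf6 call held in all 15 alternatives run. The Srsf3 call was lost in 9 of the 15, among them the fits without γ- replicate 2 (-0.32), γ- replicate 3 (-0.34) and 23/24 replicates 1, 2 and 3 (-0.43, -0.35 and -0.38). The Snrpb call was lost in 6 of the 15, each of the fits without 1 of the compared arrays, where its log2 fold change ran from 0.23 to 0.30. Median centring gave 3 higher and 1 lower, with 77.9% of all calls higher against 51.4% as deposited. In the fit without γ+ replicate 2, 10.3% of all genes were called higher and 8.03% lower in this comparison.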

How the data were processed

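RNA of 12 cultures was measured on Affymetrix whole-transcript rat arrays, 3 arrays for each of 4 groups taken from the sample titles. The deposited values, 1 table for all arrays, were taken as log2 levels from their range (1.09 to 13.89, array medians 5.33 to 5.53). MAS5 is named without a version, per the submitters' processing notes; no source used here gives the background correction, summarization, log base or normalization. Signal over background is not in the table, and the number of arrays limits the precision.

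The table held 28826 probe sets. The probe table gave 1 symbol for 15209, several for 306 and none for 13311, and symbols were updated through Entrez identifiers in the RefSeq table of GRCr8, which held 15178. Probe sets with a mean at or below the 40th percentile (4.78) were left out, which kept 17295, and the single-gene probe set of highest mean stood for each of 10025 genes.

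limma 3.58.1 in R 4.3.3 (lmFit, eBayes with an intensity trend) fitted a mean per group over all 12 arrays, with 8 residual degrees of freedom, for 6 comparisons and an F test. Benjamini-Hochberg adjustment ran over all genes within each comparison, and an adjusted p under 0.05 was called. The procedure was tested on simulated data. The replicate numbers did not pair the arrays (correlations of deviations -0.22 to 0.12 for the same number).

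The rule for which genes to name in the text, the lists and the motifs were chosen with earlier results of these data known. Genes were named by rule: the 8 largest rises and falls per comparison among called genes without overlap (or the 3 of lowest p where none was called), 10 genes always given, the lowest F-test p per family, and up to 3 called genes of each neighbouring list. Further splicing genes are given to account for all 44. Alternatives were 2 other scalings, a filter at the 60th percentile and none, each gene as the mean of its probe sets, no intensity trend, array weights, a replicate block, the 6 compared arrays alone and leaving out each array. Promoter letters come from RefSeq, assembly GRCr8.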

Additional observations from a re-analysis of the deposited data

How the results depend on the processing

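In γ+ cultures against control, 31 of the 35 splicing gene calls were kept in every alternative in which the gene was tested, and the exceptions were Hnrnpdl (lost in 7 of 15), Snrpb2 (lost in 5), Hnrnpa3 and Sf3b5 (lost in 1 each). Leaving out 1 of the compared arrays gave 33 to 40 calls there, 36 to 40 for γ+ against γ- cultures and 35 to 42 for γ+ against 23/24 cultures. Calls kept in every alternative were 36 of 40 for γ+ against γ- cultures and 34 of 40 for γ+ against 23/24 cultures. For γ- against control cultures leaving out 1 of the compared arrays gave 1 to 2, and for γ- against 23/24 cultures 1 to 2, with 3 as reported. The other alternatives kept each count within 1.5 times, with these exceptions: array weights gave 1 call for 23/24 against control cultures and 10 for γ- against 23/24 cultures (7 higher, 3 lower), and the 6 compared arrays alone gave 6 for the last comparison. The cause was not tested. Hnrnpa3 in γ- against 23/24 cultures stood at 0.04 as reported and reversed to -0.32 (limma, adjusted p = 0.02) when its probe sets were averaged, a construction that brings in probe sets of other levels. With replicate number as a block, which the arrays' deviations did not bear out as a pairing (1 of 18 same-number pairs and 9 of 36 different-number pairs correlated over 0.1), the calls were 34 for γ+, 2 for γ- and 0 for 23/24 against control cultures, 40 for γ+ against γ-, 41 for γ+ against 23/24 and 2 for γ- against 23/24 cultures, and 37 in the F test. The filter at the 60th percentile left 42 splicing genes to test.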
